A study of Rattus norvegicus with 13 samples.

Results

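The microRNA rno-miR-21 was followed in fat from 13 female Sprague Dawley rats, 1 of 677 rat miRNAs on the array. It was chosen by its name in the array files, and all of its spots were used: 2 probes with 10 spots each on every array. The 7 Control daughters had fathers on standard chow (9% as fat), and the 6 HFD daughters had fathers on high-fat pellets (43% as fat). Fathers were mated at 15 weeks of age to females that ate chow. All daughters were weaned onto chow at 3 weeks and their fat was taken at 14 weeks, so no daughter ate the high-fat diet herself. The labels name neither the father nor the litter of a daughter, nor the fat depot. The p-values therefore measure the spread between the animals as labelled, and sisters could not be taken into account.

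A miRNA is cut from a hairpin RNA and guides a silencing complex to messenger RNAs that pair with its seed, the bases near its 5′ end. The miR-21 hairpin gives a guide strand, miR-21, and a passenger strand, miR-21*. miR-21 is known for its rise in fibrotic tissue, where transforming growth factor beta promotes its processing, for its abundance in macrophages and other immune cells, and for promoting the differentiation of fat precursor cells in culture.

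The hairpin lies on the minus strand of chromosome 10 in the rat build GRCr8, at chr10:71902600-71902691, and no other gene of the RefSeq table overlaps it. Its neighbours there are Tubd1 on the side of lower coordinates and Vmp1 on the other. The hairpin is shown because the array measures both of its arms, which stand in capitals, with the guide arm first:
mir-21 hairpin: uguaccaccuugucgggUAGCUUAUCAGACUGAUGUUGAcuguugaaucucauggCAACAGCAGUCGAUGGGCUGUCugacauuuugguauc

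The mature strands, of 22 bases each, map to chr10:71902653-71902674 for miR-21 and to chr10:71902615-71902636 for miR-21*. They are shown with the seed, bases 2 to 8, in capitals, followed by the miRNAs on which the correlations below turn:
miR-21: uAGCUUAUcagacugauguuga
miR-21*: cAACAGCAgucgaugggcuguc
miR-221: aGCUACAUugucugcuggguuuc
miR-214: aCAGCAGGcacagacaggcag
miR-199a-5p: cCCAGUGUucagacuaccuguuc
miR-143: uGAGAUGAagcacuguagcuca
miR-145: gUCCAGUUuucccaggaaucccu
miR-140: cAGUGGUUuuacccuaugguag
miR-126*: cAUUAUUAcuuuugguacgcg
miR-342-3p: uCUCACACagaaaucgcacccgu
miR-223: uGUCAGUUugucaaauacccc
All sequences are from RefSeq with GRCr8, and miR-320 and miR-347 are named only. Among 693 mature names in that table, 1 carried the seed of miR-21, its own. The longest run of bases that any of the miRNAs printed beside miR-21* shared with miR-21 was 7 bases, in miR-199a-5p.

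miR-21 gave a strong signal on every array. The deposited spot value is a background-subtracted intensity in arbitrary units. Averaged over the spots of a probe, it ran from 5931 (HFD 619) to 11210 (Control 658) for probe A_26_P00001210. For probe A_26_P00001211 it ran from 4420 to 8303, with HFD 619 and Control 658 again at the ends. Of 260 miR-21 spots on the 13 arrays, 16 carried an outlier flag and were left out. None was saturated, and each spot kept was well above background.

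miR-21*, the other arm of the hairpin, was not well above background. In the 20 spots that each array holds for it, 0 of 260 passed that test, and the brightest reached an intensity of 27.8. The guide strand is thus the arm these arrays measured, and no level of the passenger strand or ratio of the arms is given. miR-590-5p, which is known to share the seed of miR-21 in other annotations, has no probe in the files.

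**Figure D1:**
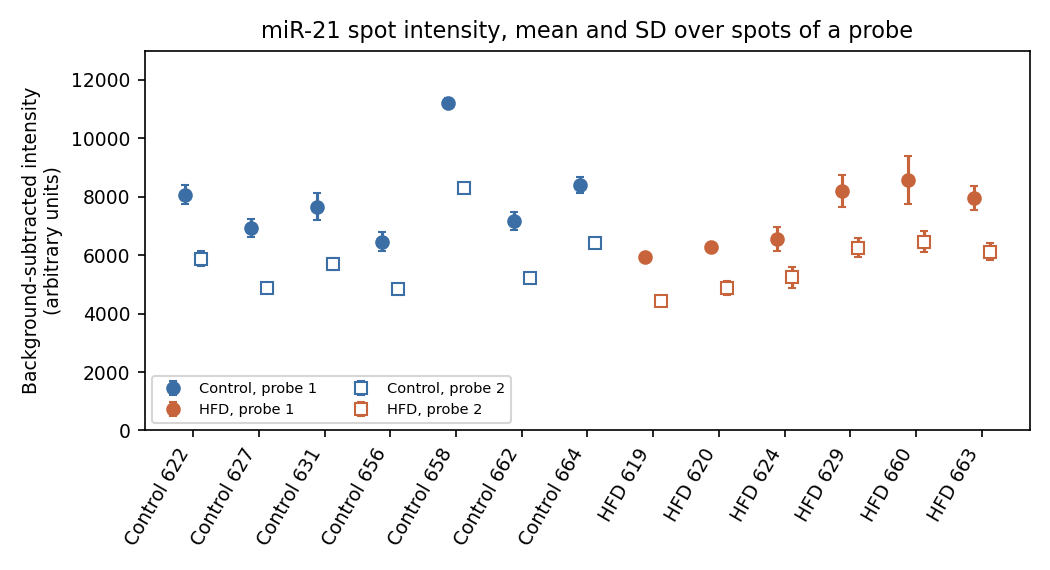
Background-subtracted intensity of miR-21 in arbitrary units, for each of the 13 arrays. Filled circles are probe A_26_P00001210 and open squares probe A_26_P00001211, each as the mean and SD over its unflagged spots (7 to 10 spots); Control 658 has the highest value for both probes, 11210 and 8303.

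To compare arrays, each probe was divided by its array's 75th percentile over 260 probes detected on all arrays, and the log2 values of both miR-21 probes were averaged. A level below is this log2 value, so 0 is the 75th percentile of the array. In the Control group the miR-21 level was 1.889 in animal 622, 1.913 in 627, 1.668 in 631 and 1.381 in 656. It was 2.265 in 658, 1.518 in 662 and 1.934 in 664. In the HFD group it was 1.594 in animal 619, 1.743 in 620, 1.661 in 624, 1.496 in 629, 1.780 in 660 and 1.763 in 663. All 6 HFD arrays lay within the Control range. Control 658, 664, 627 and 622 lay above every HFD array, and Control 656 lay below every HFD array.

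miR-21 did not pass the test for a difference between the diets of the fathers. The mean level was 1.795 ± 0.297 (SD, n = 7) in Control and 1.673 ± 0.111 (SD, n = 6) in HFD. The difference, HFD minus Control, was -0.12 ± 0.12 (SE) on the log2 scale, a ratio of 0.919 with a 95% interval from 0.765 to 1.10. Its adjusted p was 0.9655 by limma with Benjamini-Hochberg adjustment over 176 miRNAs detected on at least 6 arrays. The exact permutation test of miR-21 alone, two-sided over all 1716 splits of the arrays, gave p = 0.3759, where the smallest p it can give is 0.000583. The interval leaves room for an HFD level from 0.765 to 1.10 times that of the Control group.

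No other miRNA passed either: limma called 0 of 176 miRNAs at adjusted p (0.0%), and 2 of 176 (1.14%) had an unadjusted p under 0.05. These were miR-214 and miR-193*, the latter named after its value was seen. miR-21 was number 61 of 176 in order of p.

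**Figure D2:**
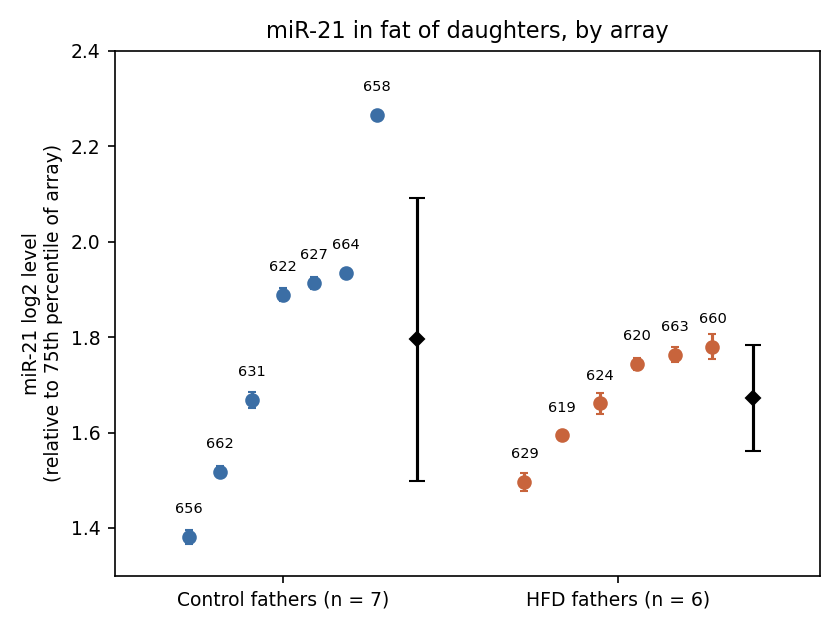
miR-21 log2 level relative to the array's 75th percentile, for each animal (numbers as in the labels), by diet of the father. Bars on the circles are the standard error over spots, and black diamonds with bars are the group mean and SD (1.795 ± 0.297 for 7 Control arrays, 1.673 ± 0.111 for 6 HFD arrays); the HFD arrays lie within the range of the Control arrays.

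Control 658 carried much of the distance between the group means. Without it the Control mean was 1.717, the highest Control level was 1.934, and the difference was -0.044 instead of -0.122. Without Control 656, the lowest array, the difference was -0.191. When each array was left out in turn, all differences lay between these values, and none passed the limma test.

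The arrays came from 2 slides, and both diets were on each. Within slide 1 (4 Control and 4 HFD arrays) the difference was -0.038, and within slide 2 (3 Control, with 658 among them, and 2 HFD arrays) it was -0.237. The test of the difference between the slides gave -0.199 on the log2 scale and an adjusted p of 0.7275 by limma. With slide as a block the diet difference was -0.112. The animal numbers fall in a lower and an upper range, and the difference was -0.200 within the lower range and -0.0026 within the upper, which holds Control 658 and Control 656. With the number range as a block it was -0.113. Fat depots were not labelled, and the muscle markers (miR-1, miR-133b and miR-499 were tested) had a mean level from -5.062 to 0.503 across arrays. With that mean as a covariate the difference remained below 0 and did not pass the test.

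**Figure D3:**
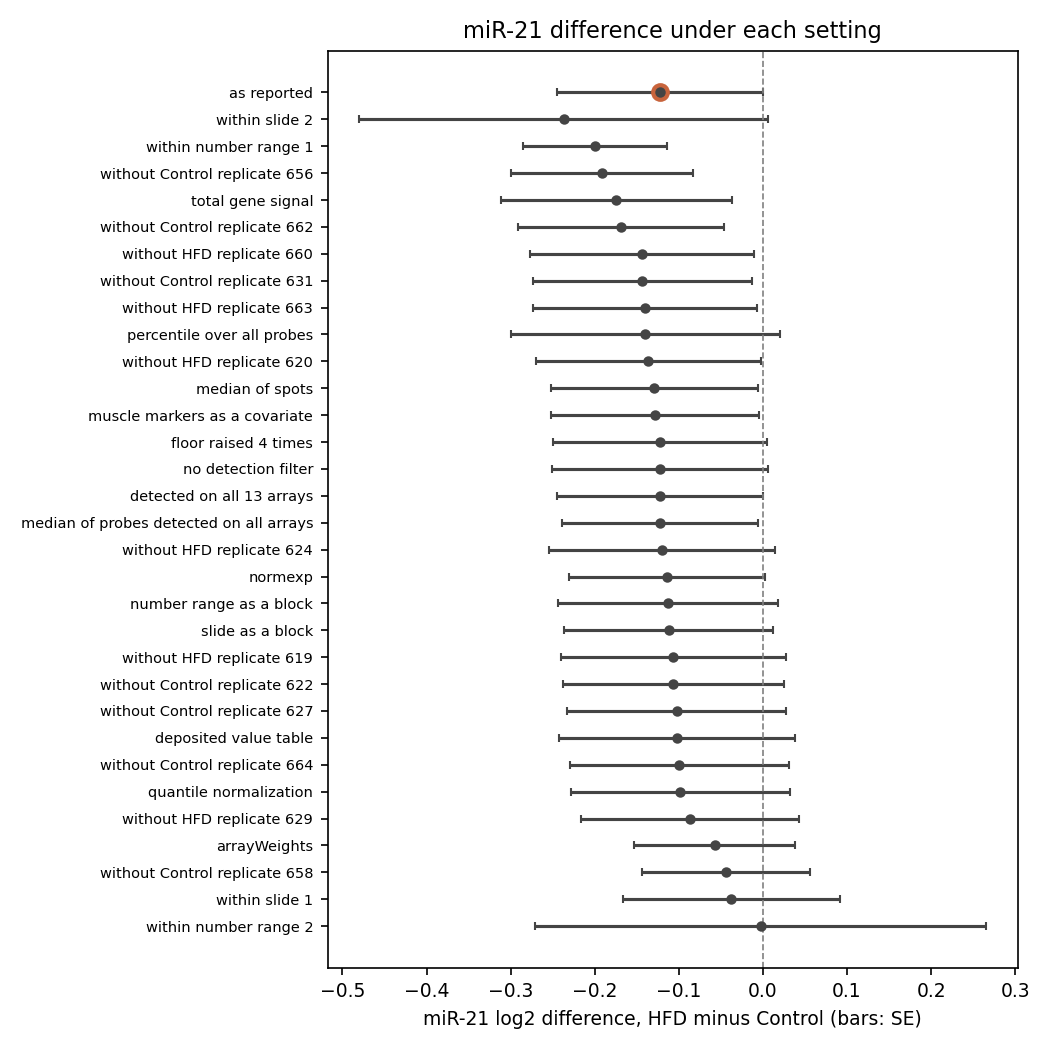
Difference of miR-21 between HFD and Control on the log2 scale (circles) with its standard error (bars), as reported (top, orange) and under each alternative. All circles lie below 0, from -0.2368 within slide 2 to -0.0026 within the upper range of animal numbers, and none passed the limma test.

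Both probes gave the same picture. The difference was -0.15 ± 0.13 (SE) for probe A_26_P00001210 and -0.09 ± 0.13 (SE) for probe A_26_P00001211, with an adjusted p of 1 for each by limma over 381 probes. Over the 13 arrays the log2 levels of the probes had a Pearson r of 0.98, as a description, and their difference had an SD of 0.0469.

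The spread of miR-21 between arrays was set beside the error of its spots. The standard error of the level over spots ran from 0.0056 to 0.0256, with a median of 0.0134. It covers error within an array only and leaves out labelling, hybridisation and scaling, which no repeated array of 1 animal measured here. The levels spanned 0.885 on the log2 scale, a 1.85-fold range. With the 13 arrays in order of level, 6 of the 12 gaps between neighbours were under 2 times their standard error. Those neighbours were Control 664 and 627, Control 627 and 622, HFD 660 and 663, HFD 663 and 620, Control 631 and HFD 624, and Control 662 and HFD 629. The step from Control 658 down to Control 664, of 0.331, was the largest gap. The SD of miR-21 over all 13 arrays was 0.231, against a median SD of 0.158 for the 144 miRNAs detected on every array. Of these 144, 34 had an SD at least as large, with miR-21 itself counted.

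The spread was wider in Control than in HFD, with an SD of 0.297 against 0.111. This comparison was chosen after the values were seen. The mean absolute deviation from the group median was 0.221 in Control and 0.0891 in HFD, and the exact permutation test of that difference, two-sided, gave p = 0.1608, so it did not pass. Without Control 658 the Control SD was 0.232. Among the 144 miRNAs detected on all arrays, 84 (58.3%) had a larger SD in Control, and 10 had a ratio of SDs at least that of miR-21 (2.66). Both counts include miR-21 itself.

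The miRNAs that vary with miR-21 were sought among the 143 others detected on all 13 arrays. No correlation passed: 0 of 143 (0.0%) did so at adjusted permutation p, where the lowest was 0.5271, and 8 of 143 (5.59%) had an unadjusted permutation p under 0.05, 5 of them positive. The median r was -0.03, and 65 of 143 (45.5%) were above 0. All correlations share the miR-21 values and the scaling of the arrays. They are given below by size, as descriptions of these 13 arrays.

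The 8 highest values of Pearson r belonged to miR-221 (0.68), miR-214 (0.68), miR-320 (0.64), miR-347 (0.61), miR-199a-5p (0.57), miR-202* (0.56), miR-143 (0.55) and miR-145 (0.52). miR-143 and miR-145 are cut from neighbouring hairpins and are abundant in smooth muscle. miR-199a-5p and miR-214 come from a shared transcript of mesenchymal cells, and miR-221 restrains the cell cycle inhibitor p27 and falls as fat precursor cells differentiate. The 4 lowest values belonged to miR-140 (-0.73), its hairpin partner miR-140* (-0.67), miR-126* (-0.64), which comes from the endothelial gene Egfl7, and miR-196a (-0.55), which lies in the Hox gene clusters. Spearman's rho for the same miRNAs was 0.45 for miR-221, 0.44 for miR-214, 0.62 for miR-320, 0.54 for miR-347, 0.16 for miR-199a-5p and 0.47 for miR-202*. It was -0.32 for miR-143, -0.30 for miR-145, -0.45 for miR-140, -0.32 for miR-140*, -0.64 for miR-126* and 0.07 for miR-196a. The ranks of miR-143, miR-145 and miR-196a thus went the other way from their r. The unadjusted permutation p of rho was 0.0282 for miR-320 and 0.023 for miR-126*, and every adjusted p of rho in this family was 0.9929 for the miRNAs named here.

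Control 658 stood apart in the mesenchymal miRNAs of this set. The miR-143 level was 3.741 in Control 658 and lay between 1.097 and 1.770 on the other Control arrays and between 1.356 and 1.515 on the HFD arrays. miR-145 was at 0.093 in Control 658, at -2.657 to -1.957 on the other Control arrays and at -2.455 to -2.118 on the HFD arrays. miR-221 was at -1.752 in Control 658, at -3.756 to -3.342 in the other Control arrays and at -3.953 to -3.612 in HFD. In each of the 3, Control 658 lay above all other arrays by more than their whole range, while the remaining Control and HFD arrays overlapped. miR-214 was at -2.215 in Control 658, at -3.049 to -2.842 in the other Control arrays and at -3.405 to -3.019 in HFD, so its groups also overlapped. miR-196a went the other way, at -4.828 in Control 658 against -2.747 to -1.968 in the other Control arrays and -2.896 to -1.794 in HFD.

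**Figure D4:**
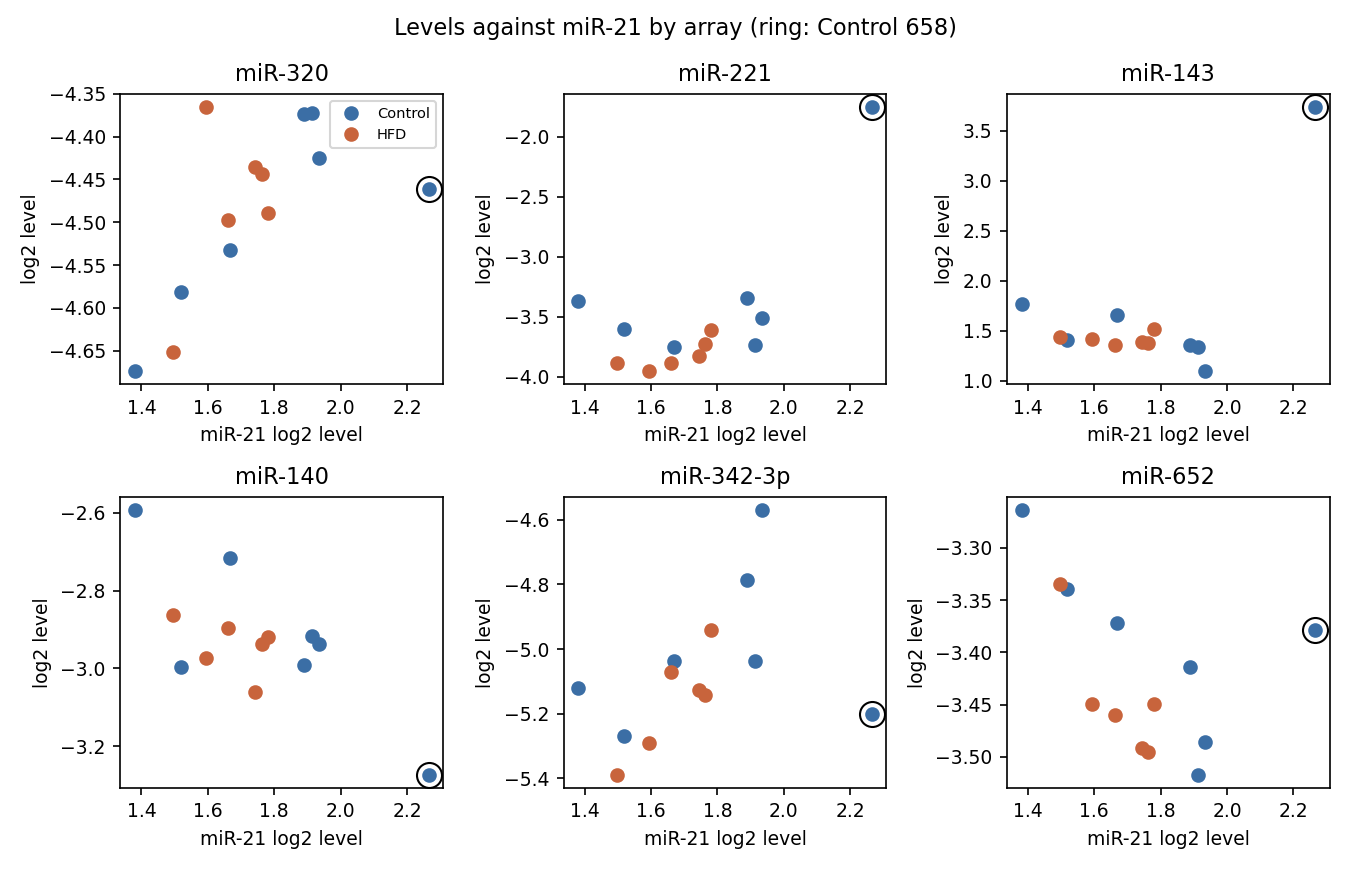
Log2 level of miR-320, miR-221, miR-143, miR-140, miR-342-3p and miR-652 (vertical axes) against that of miR-21 (horizontal axes) on the 13 arrays, with both levels relative to the array's 75th percentile. Control arrays are blue, HFD arrays orange, and the ring marks Control 658, which has the highest level of miR-21 (2.265), miR-221 (-1.752) and miR-143 (3.741) and the lowest of miR-140 (-3.273).

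Without Control 658 the set changed almost wholly. Over the other 12 arrays, r with miR-21 was 0.14 for miR-221, 0.29 for miR-214, -0.14 for miR-199a-5p, -0.67 for miR-143, -0.65 for miR-145 and 0.24 for miR-196a. For miR-347 it was 0.45, for miR-202* 0.46, for miR-140 -0.51, for miR-140* -0.33 and for miR-126* -0.63. Of the 143 correlations, 57 changed sign. Of the 8 highest, 1 (miR-320) was still among the 8 highest, and of the 4 lowest, 0 were still among the 4 lowest. No correlation passed the adjusted permutation test over these 12 arrays either, with a lowest adjusted p of 0.1065, and 12 had an unadjusted p under 0.05.

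The arrays farthest from the median miR-21 level were Control 658 and Control 656, and leaving out both gave an r of 0.59 for miR-221, 0.62 for miR-214, 0.72 for miR-320, 0.30 for miR-347 and 0.28 for miR-202*. It gave 0.05 for miR-199a-5p, -0.49 for both miR-143 and miR-145, -0.16 for miR-140, 0.06 for miR-140*, -0.54 for miR-126* and 0.33 for miR-196a. The size of r over 13 arrays for miR-199a-5p, miR-143, miR-145, miR-140, miR-140* and miR-196a therefore rests on those arrays. For miR-347 and miR-202* it does so in part. For miR-221 and miR-214 it rests on Control 658, without which alone r was 0.14 and 0.29. Within the 6 HFD arrays alone, r was 0.76 for miR-221, 0.77 for miR-214, 0.68 for both miR-347 and miR-202*, and 0.34 for miR-199a-5p. There it was 0.07 for miR-143, 0.12 for miR-145, -0.45 for miR-140, -0.73 for miR-140*, 0.22 for miR-126* and 0.41 for miR-196a. The pair from the miR-140 hairpin thus kept a negative r in HFD, where neither of those Control arrays enters, and miR-126* did not. Within the 8 arrays of slide 1, r was 0.03 for miR-221, 0.25 for miR-214, -0.79 for miR-140 and -0.65 for miR-140*. No r is given for slide 2, whose 5 arrays are under the minimum of 6 used here.

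miR-320, which is cut from a hairpin without the usual first processing step, was among the 8 highest both with and without Control 658. Its r with miR-21 lay between 0.51 and 0.81 when each array was left out in turn, was 0.77 within Control and 0.50 within HFD, and was 0.98 within slide 1. With the normexp background correction it was 0.41. Its level ran from -4.674 in Control 656 to -4.374 in Control 622 and -4.372 in Control 627, and HFD 619 was highest at -4.365. These levels lie near the floor of -5.67, and their whole range was small. The miR-320 level also moved with the scaling of the arrays, with an r of -0.80 against the log2 of the 75th percentile used for scaling, where miR-21 itself had -0.35 (adjusted permutation p = 0.6143 over 3 array measures). The r of miR-21 with the scaling value was -0.54 without Control 658. The part of the scaling in the relation of miR-320 with miR-21 was not tested. The difference of miR-320 between diets was 0.01 ± 0.06 (SE), with an adjusted p of 0.9961 by limma.

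miR-652 and miR-342-3p were chosen after their values were seen, since they led without Control 658. miR-342-3p, a miRNA of lymphoid and myeloid cells, had an r of 0.75 without Control 658 and 0.42 with it. Its levels were lowest in HFD 629 (-5.389) and highest in Control 664 (-4.570), close to the floor. miR-652 had an r of -0.82 without Control 658 and -0.48 with it, over levels from -3.517 to -3.264, and it also moved with the scaling value (r = 0.69).

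**Figure D5:**
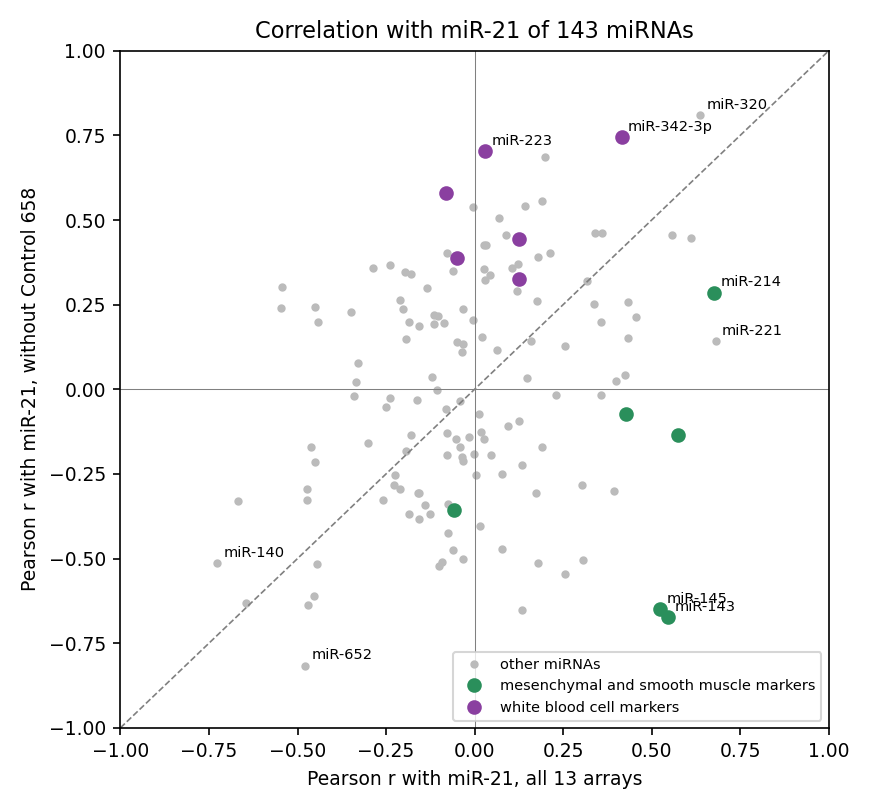
Pearson r with miR-21 of 143 miRNAs over all 13 arrays (horizontal axis) and over 12 arrays without Control 658 (vertical axis); the dashed line marks equal values. Mesenchymal and smooth muscle markers (green) lie right of 0 for 5 of 6 with Control 658 and above 0 for 1 of 6 without it, and white blood cell markers (purple) are above 0 for 4 of 6 with it and for 6 of 6 without it. Of all 143 miRNAs, 45.5% are above 0 with it and 50.3% without it.

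Marker lists of the cells that fat can hold were set beside miR-21. Fewer cells of a type and less RNA per cell cannot be told apart in this bulk tissue. The mean level of the 6 mesenchymal and smooth muscle markers (miR-143, miR-145, miR-199a-3p, miR-199a-5p, miR-214 and miR-100) was 0.023 in Control 658, -1.338 to -1.041 on the other Control arrays and -1.436 to -1.216 on the HFD arrays. With Control 658, 5 of the 6 had an r above 0 with miR-21 and the median r was 0.54. Without it 1 of 6 did (miR-214), with a median of -0.25, where 50.3% of all 143 miRNAs were above 0. Only miR-100 had an r below 0 in both. Between diets, the difference was below 0 for all 6, where 48.3% of all 176 miRNAs were, with a median of -0.32. None passed the test. Without Control 658 the median was -0.13, miR-145 turned to 0.07 and miR-143 was at -0.02. The 6 are not separate observations: miR-199a-5p and miR-214 share a transcript, and miR-143 and miR-145 are cut from neighbouring hairpins.

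White blood cell markers went the other way. Control 658 had the lowest mean of this list, -1.997, while the other Control arrays ran from -1.920 (Control 656) to -1.283 (Control 664) and the HFD arrays from -1.908 to -1.641. Over all 13 arrays 4 of the 6 tested markers had an r above 0, with a median of 0.08, where 45.5% of all 143 miRNAs did. Without Control 658 all 6 did, with a median of 0.51: miR-342-3p 0.75, miR-223 0.70, miR-150 0.58, miR-142-3p 0.44, miR-146a 0.39 and miR-142-5p 0.33. There 50.3% of all 143 miRNAs did. Within the 6 HFD arrays these were, in the same order, 0.87, 0.01, 0.47, 0.35, -0.19 and 0.0001. Without Control 658, r with the log2 scaling value was -0.245 for miR-342-3p, -0.355 for miR-223 and -0.447 for miR-150, and -0.54 for miR-21. The part of the scaling in these r values was not tested. miR-223, a miRNA of granulocytes and macrophages, was highest in Control 664 (-0.511) and Control 622 (-0.661), which also had high miR-21, and lowest in Control 658 (-1.388), which had the highest. The part of either cell type in the level of miR-21 was not tested. The endothelial pair, miR-126 and miR-126*, had an r below 0 both with Control 658 (median -0.55) and without it (median -0.42). Within the 6 HFD arrays both were above 0, at 0.49 and 0.22. Over all 13 arrays, r of miR-126* was -0.054 with quantile normalization and -0.051 with the total gene signal.

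Among the miRNAs known to rise in fibrosis beside miR-21, none of 10 tested members passed the test between diets, against 0.0% of all miRNAs. The difference was below 0 for 8 of 10, with a median of -0.27, where 48.3% of all 176 miRNAs were below 0 with a median of 0.0028. The 8 are not separate observations, since miR-199a-5p and miR-214 share a transcript. miR-146a was among them with a difference of -0.0043. So was miR-222, which lay at the floor on 8 arrays, all 6 HFD arrays among them. Its difference was -0.33 ± 0.25 (SE), and -0.09 without Control 658. Without Control 658 the median of the list was -0.13. Of the list, miR-145, miR-199a-3p, miR-199a-5p and miR-214 are also among the mesenchymal markers, whose median difference was -0.32. The part of these cells in the list's values was not tested. miR-214 had the lowest p of all miRNAs: it was at -2.824 ± 0.278 (SD, n = 7) in Control and -3.196 ± 0.143 (SD, n = 6) in HFD, a difference of -0.37 ± 0.12 (SE) with an adjusted p of 0.9655 by limma. The difference was -0.26 ± 0.12 (SE) for miR-199a-3p, -0.38 ± 0.20 (SE) for miR-199a-5p and -0.52 ± 0.27 (SE) for miR-221, all with the same adjusted p. Without Control 658 the difference was -0.27 for miR-214, -0.18 for miR-199a-3p, -0.20 for miR-199a-5p and -0.26 for miR-221. miR-155 has no probe in the files, and miR-433 was detected on too few arrays to test.

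The list of miRNAs known to hold fibrosis back includes the miR-29 family, which targets collagen messenger RNAs. None of 10 tested members passed, and 9 of 10 lay below 0 with a median of -0.04, where 48.3% of all 176 miRNAs did. Among the 9 were miR-30c at -0.0013 ± 0.07 (SE) and miR-101b at -0.0 ± 0.06 (SE), which have no clear direction. Below 0 were 6 of 10 with quantile normalization and 10 of 10 with the total gene signal. The median was -0.01 without Control 658. miR-29a was at 1.290 ± 0.139 (SD, n = 7) in Control and 1.193 ± 0.134 (SD, n = 6) in HFD. Of the 10, 5 had an r above 0 with miR-21 over all arrays and 0 of 10 did without Control 658, with a median of -0.35.

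Lists on adipocyte differentiation gave no member past the test. Of 15 tested miRNAs known to promote it, 9 lay above 0 and 6 below, with a median difference of 0.01, and the median turned to -0.03 with the total gene signal, where 11 of 15 lay below. Leaving out single arrays moved this median between -0.02 (without HFD 629) and 0.02 (without Control 627). miR-378, which is made from the gene of the mitochondrial co-activator PGC-1 beta, was at -0.308 ± 0.218 (SD, n = 7) in Control and -0.151 ± 0.182 (SD, n = 6) in HFD, with an adjusted p of 0.9655 by limma. Of 9 tested miRNAs known to restrain it, 7 lay below 0 with a median of -0.07, and 9 of 9 with the total gene signal, with a median of -0.12. The median was -0.03 without Control 658 and -0.04 without Control 656. Among these miR-27b, which targets the adipocyte regulator PPAR gamma, had a difference of -0.19 ± 0.14 (SE), and of -0.11 without Control 658. Its r with miR-21 was 0.13 over all arrays and -0.65 without Control 658. miR-199a-5p was the only tested one of 3 miRNAs listed here as processed with miR-21 on transforming growth factor signals. The others listed, miR-215 and miR-421, were detected on too few arrays.

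The inflammation list had 4 tested members (miR-146a, miR-146b, miR-223 and miR-125b-5p). None passed, and all 4 lay below 0 with a median of -0.07, where 48.3% of all 176 miRNAs did. Of these, miR-146a was at -0.0043 ± 0.09 (SE), and with quantile normalization 3 of 4 lay below 0. The median of the list was -0.14 without Control 658 and -0.02 without Control 664. miR-223 was at -0.909 ± 0.294 (SD, n = 7) in Control and -1.020 ± 0.099 (SD, n = 6) in HFD, and miR-146b, a relative of miR-146a that dampens Toll-like receptor signals, differed by -0.06 ± 0.23 (SE). The difference was -0.19 for miR-223 and -0.23 for miR-146b without Control 658. The lowest miR-146b level was in Control 658 (-3.733).

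Of the adipose list, whose members are high in fat and not specific to it, all 6 were tested. Of these, 5 lay above 0 with a median of 0.15, none passed the test, and 1 had an r above 0 with miR-21. The median difference was 0.09 without Control 658. The median r of the list was -0.10, and 0.32 with the percentile over all probes. The labelled tissue could not be checked with this list, since fat has no miRNA of its own. All 6 members (miR-378, miR-193, miR-365, miR-103, miR-143 and miR-196a) were detected on every array. So were 144 miRNAs in all, with the muscle markers miR-1 and miR-133b among them. Red blood cell markers (miR-451, miR-144 and miR-144*) lay above 0 in 3 of 3, where 91 of all 176 miRNAs did. miR-144 and miR-144* are arms of 1 hairpin, so the 3 are not separate observations. miR-451 was at 1.443 ± 0.702 (SD, n = 7) in Control and 1.995 ± 0.524 (SD, n = 6) in HFD, with an adjusted p of 0.9655 by limma. The part of red blood cells in the result for miR-21 was not tested. The number of miRNAs detected on an array ran from 154 to 196, and r with miR-21 was -0.15 for that number and -0.18 for the mean of the muscle markers, each with an adjusted permutation p of 0.6143. Without Control 658 these were -0.33 and -0.29.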

How the data were processed

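Each sample's Cy3-labelled RNA was measured on 1 Agilent 1-colour rat miRNA array. Per the file headers, the authors read spots with Feature Extraction 10.7.3.1, using a grid for build rn4. The deposited spot values are background-subtracted intensity, not normalized between arrays. The deposited value table holds log2 of the total gene signal (26 of 2569 values differed by more than 2e-04; column medians 6.95 to 7.77, not centred). RMA and Partek, which the submitters' processing notes list, have no stated role.

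Unflagged spots were averaged, scaled by the 75th percentile of 260 probes, floored at log2 -5.67 and taken to log2. A miRNA counted as detected where at least 0.5 of the spots of a probe were well above background. Tests used limma 3.58.1 in R 4.3.3 without covariates, and permutation tests with 100000 resamples for correlations (numpy 2.4.6, with ranks from scipy 1.17.1). These tests were two-sided at an adjusted p of 0.05. The fit was tested on simulated data. Array number limits the precision.

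miR-21 and all lists were chosen with earlier results of these data known. Candidates for naming were miR-21, members of its hairpin or seed list and the 8 highest and 4 lowest r. The 4 lowest p of each role list and the first 2 tested of each marker list were added. Not all candidates are described: miR-24, miR-26a, miR-26b, miR-29b and miR-210 are left out. So are the marker lists of epithelium, of nerve and brain, and of liver, pancreas and kidney. None of these miRNAs or lists held a member past the test between diets. Others are named as examples chosen after their values were seen: miR-342-3p, miR-652, miR-193*, miR-106b, and single members of the marker lists where a list was described in full. Groups came from the titles. Background, scaling, filters, blocks, probes' summary and left-out arrays were varied.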

Additional observations from a re-analysis of the deposited data

Results flagged for a closer look

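Each of the 13 named miRNAs with the highest or lowest correlations, miR-21 among them, was examined in both groups (26 checks) for an array far from the rest of its group by Dixon's criterion. In 6 of these checks an array stood apart, and chance alone does so in about 1 in 20 groups. That rate does not carry over to these checks, since the miRNAs were chosen for their r with miR-21, in which Control 658 is highest, and some come from shared transcripts. All 6 concern Control 658. Its level was -1.752 for miR-221, -2.215 for miR-214, -0.690 for miR-199a-5p, 3.741 for miR-143 and 0.093 for miR-145, each above the other Control arrays. It was -4.828 for miR-196a, below them. The 2.265 of miR-21 on the same array was not far enough from the other Control arrays to meet the criterion.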

How the results depend on the processing

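The difference of miR-21 was below 0 in all 28 alternatives that can move it, from -0.2368 (within slide 2) to -0.0026 (within the upper number range), with an adjusted p by limma from 0.4496 to 1 over all settings. limma called 0 miRNAs in all 31 settings of that count. No paired analysis was possible because the groups share no animal numbers. Of 347 values of r recomputed for 14 miRNAs, 327 had the reported sign, leaving out 3 detection filters that cannot change an r. Settings that leave out 1 array keep all the others, so their signs are not separate checks. The count also leaves out size. With the total gene signal, r was -0.118 for miR-140, -0.038 for miR-140* and -0.051 for miR-126*, each counted as the reported sign. With Spearman's rho and without the 2 farthest arrays, miR-143 turned to -0.319 and -0.491, miR-145 to -0.302 and -0.492, and miR-196a to 0.066 and 0.332. Leaving out each array in turn gave -0.136 to 0.681 for miR-199a-5p, -0.673 to 0.659 for miR-143, -0.649 to 0.633 for miR-145 and -0.638 to 0.242 for miR-196a. With the percentile taken over all probes, 1 correlation passed (miR-106b, r = 0.85, adjusted permutation p = 0.0229), and the median r of all miRNAs was 0.44 against -0.03. There miR-140 was at 0.044, miR-126* at 0.199 and miR-652 at 0.408. The deposited table (median r 0.29) gave 0.094 for miR-140 and 0.740 for miR-652. miR-652 was at 0.152 with quantile normalization and 0.139 with the total gene signal. miR-140* was at 0.103 (deposited table), 0.167 (percentile over all probes) and 0.064 (without the 2 farthest arrays). The cause of these reversals was not tested. The planned normexp correction on mean signals was not run, since the files hold median signals, and those were used instead, chosen after seeing the files. Faint miRNAs such as miR-320 and miR-342-3p lie near the floor, where levels are less certain.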
